A study of Solanum lycopersicum with 40 samples.

Results

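Expression of 3 genes of the protein synthesis machinery was followed across tissues of tomato: eIF4E1, eIF-5A3 and LysRS, each measured by 1 probe set (Les.3736.1.S1_at, Les.3361.1.S1_at and Les.3641.1.S1_at). They were found by their symbol in the platform's annotation, 3 of the 802 genes that carry a symbol on an array of 10209 probe sets. All 3 were selected on measured values: eIF4E1 for its difference between transgenic lines and controls in ripe fruit, and eIF-5A3 and LysRS for theirs in root tips. The differences between lines and controls are therefore given as descriptions with no p-value. Where such a difference is said to be called, not called or to lose its call, that too is a description. For the 3 genes, tests are given only for other comparisons. Some of these reuse arrays of the comparisons that chose the genes, among them the fruit controls for eIF4E1. They are not independent of that choice.

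The eIF4E protein binds the cap at the 5′ end of a messenger RNA and, with its scaffold eIF4G, brings the small ribosomal subunit to the message. In plants eIF4E is also known as a host factor that potyviruses need. The eIF5A protein helps the ribosome through difficult peptide bonds and is the protein that carries hypusine, an amino acid built from a lysine by deoxyhypusine synthase (DHS) and a hydroxylase. Lysyl-tRNA synthetase, which LysRS encodes, joins lysine to its transfer RNA.

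Micro-Tom, a dwarf tomato cultivar, was profiled on 40 Affymetrix arrays as wild type (WT), as a vector control (VC) and as the lines N6 and N7, which both express an introduced InsP 5-ptase gene. An inositol polyphosphate 5-phosphatase removes a phosphate from soluble inositol phosphates. Ripe fruit came from pot-grown plants after 9 weeks in a growth chamber (4 arrays per genotype). The first leaves of light-grown seedlings aged 10 days and root tips of seedlings of the same age gave 3 arrays per genotype each. Fruit therefore differed from leaf and root tips in plant age and growth as well as in tissue, and these cannot be told apart. No treatment was applied. The sources used here do not give the promoter of the introduced gene, the number of plants per sample or whether N6 and N7 are independent transformants. Root tips are labelled etiolated, but the growth protocol describes light for them. Fruit replicates are labelled biological. The labels do not say so for leaves and root tips, whose p-values cover the spread between samples that may be technical repeats. The array values are signals on a linear scale, already scaled so that every array has a trimmed mean signal near 500.1. Signals under a floor of 50 were set to 50 before log2 was taken.

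Tissue identity held on every array. Summed signals of 5 ripe fruit markers were at least 24438 in fruit and at most 547 elsewhere, those of 5 green leaf markers at least 35078 in leaf and at most 12272 elsewhere, and those of 2 root markers at least 374 in root tips against at most 80.5 elsewhere. Genotype labels were less secure in fruit. The reporter probe set A06498 gave 237 to 336 in fruit N7 and 107 to 632 in leaf and root tips of both lines, but only 4.76 to 20.3 in fruit labelled N6, within the range of controls (at most 24.5). The reporter probe set M62653 gave 1198 to 4416 in fruit labelled WT and 5161 on the array labelled VC 4, against at most 10.1 on VC 1 to 3. Fruit values are thus those of libraries as labelled, and the fruit differences between lines and controls are also given for N7 against VC 1 to 3 alone. Fruit RNA quality differed too: the mean log2 ratio of 3′ to 5′ signal of control transcripts was 2.67 on WT 3 and 2.96 on VC 4, and 3.53 to 4.698 on the other fruit controls.

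In control plants, eIF4E1 was detected in every tissue. Its signal was 545 ± 215 (SD, n = 8) in fruit, 591 ± 60.8 (n = 6) in leaf and 720.0 ± 84.6 (n = 6) in root tips. The order was thus fruit, leaf, root tip from low to high. Neighbours in it did not separate: the fruit minus leaf difference was -0.20 ± 0.20 on the log2 scale (SE, adjusted p = 0.400, limma) and the leaf minus root tip difference -0.28 ± 0.21 (adjusted p = 0.237). The ends did, with fruit below root tips by a log2 difference of -0.48 ± 0.20 (adjusted p = 0.0377), beside 66.5% of all 7436 probe sets called in that comparison. This call was not firm. It was lost without any one of 11 of the 20 control arrays (fruit WT 1, 2 and 4, fruit VC 1, 2 and 3, root tip WT 1, 2 and 3, root tip VC 1 and 3), with adjusted p from 0.0523 to 0.0862. With arrays scaled to equal medians it was -0.14 (adjusted p = 0.319). That scaling moved the median difference of all probe sets from -0.03 to 0.13 for fruit minus root tip, from 0.06 to 0.20 for fruit minus leaf and from -0.24 to -0.13 for leaf minus root tip. Fruit WT 3 and VC 4 had the highest eIF4E1 signals among the fruit controls. With VC 1 to 3 as the only fruit controls, fruit lay below leaf (-0.47 ± 0.14, adjusted p = 0.00800) as well as below root tips (-0.75 ± 0.14, adjusted p = 2.05e-04). In the same fit leaf minus root tip was -0.28 ± 0.11 (adjusted p = 0.0345). No leaf or root tip array differed from the main fit, and the estimate was the same. The SE, from a spread shared by all tissues, was smaller with fruit WT and VC 4 out of the fit. With only fruit WT 3 and VC 4 left out it was 0.12, against 0.21 in the main fit.

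Signals of eIF-5A3 in controls were 3002 ± 408 (SD, n = 8) in fruit, 2048 ± 450 (n = 6) in leaf and 3128 ± 251 (n = 6) in root tips. Leaf was the low tissue. It was below fruit (fruit minus leaf 0.57 ± 0.12, adjusted p = 3.87e-04) and below root tips (leaf minus root tip -0.64 ± 0.13, adjusted p = 2.58e-04), in comparisons that called 66.3% and 70.1% of all probe sets. Both calls held without any single control array, and with VC 1 to 3 as the only fruit controls fruit minus leaf was 0.46 (adjusted p = 0.0210). Fruit and root tips could not be ordered (-0.07 ± 0.12, 95% interval -0.32 to 0.19, adjusted p = 0.657), and under median scaling the sign turned (0.27, adjusted p = 0.151). With VC 1 to 3 as the only fruit controls it was -0.18 (adjusted p = 0.343). In VC plants alone the fruit minus leaf difference was 0.38 (adjusted p = 0.0667). Because these are whole tissues, fewer cells that use a gene and less RNA per cell cannot be told apart. In the fruit contrasts tissue and plant age cannot be told apart either.

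LysRS was measurable only in root tips. All 28 fruit and leaf arrays, controls and lines alike, gave 18.4 or less, under the floor, and the gene was not tested in those tissues. In root tip controls the signal was 158 ± 28.3 (SD, n = 6), with 119 as the lowest array. The geometric mean of the root tip controls was thus at least 3.11-fold higher than that of fruit and leaf, which the floor stands for. The bound is set by the floor, and the probe set passed the low-signal filter only through root tips, so no test is attached to it. Whether a fruit or leaf transcript escapes this probe set was not tested.

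**Figure D1:**
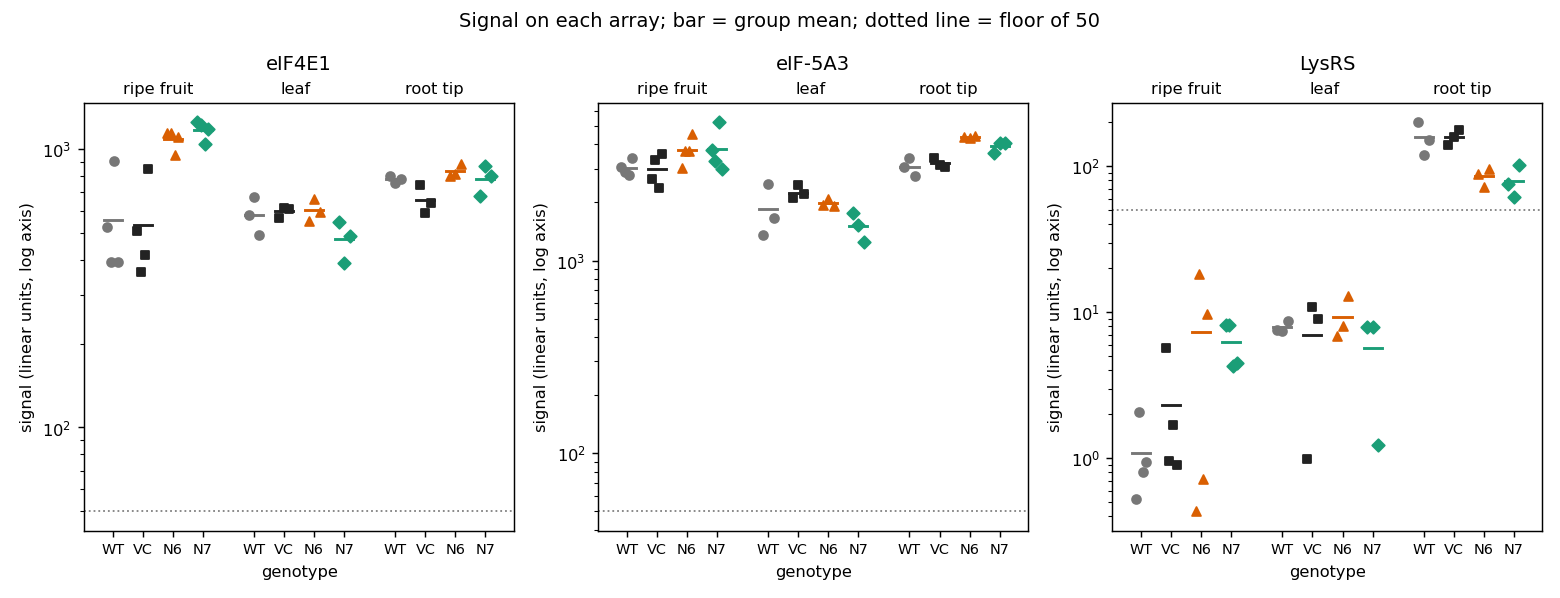
Signal of eIF4E1, eIF-5A3 and LysRS on each of the 40 arrays (linear signal on a log axis, each panel with its own range) by tissue and genotype; points are arrays, bars are group means and the dotted line is the floor of 50. All fruit arrays of N6 and N7 lie above all fruit controls for eIF4E1, the root tip lines lie above the controls for eIF-5A3 and below them for LysRS, and LysRS is under the floor in fruit and leaf.

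In ripe fruit, eIF4E1 was higher in both lines than in either control. The arrays labelled WT gave signals of 525, 394, 909 and 393, and those labelled VC 507, 361, 418 and 850.3. The arrays labelled N6 gave 1142, 1149, 956 and 1107, and those of N7 gave 1252, 1225, 1049 and 1182. Every one of the 8 line arrays was above every control array, and the closest controls were WT 3 and VC 4, the 2 controls with the lowest 3′ to 5′ ratio. The mean difference was 1.14 ± 0.18 on the log2 scale (SE, 8 against 8 arrays), a 2.20-fold higher signal. The N6 difference from the controls was 1.08 ± 0.23 and that of N7 1.19 ± 0.23. Of all 6208 probe sets tested in fruit, 31.1% were called between lines and controls at an adjusted p under 0.05. Of them, 98.3% had a lower difference than eIF4E1, a rank that goes with its choice on this difference. N7 against VC 1 to 3 alone gave 1.47 ± 0.15, and leaving out WT 3 and VC 4 gave 1.40 ± 0.10. The 3′ to 5′ ratio ran from 2.67 to 4.698 in fruit controls and from 2.88 to 4.04 in fruit lines, and with it as a covariate the difference was 0.86 ± 0.11. Tissue markers moved with the lines in fruit as well. Of the 5 green leaf markers, 4 were lower on all 8 line arrays than on every control array, among them PSBP, a subunit of photosystem II, at 973 to 2201 in controls and 128 to 323 in lines. PSBR, the most abundant of the 5, overlapped, and the summed signal of the 5 was 6681 to 12272 in controls and 4963 to 7299 in lines. Of the 5 ripe fruit markers, PG2, a polygalacturonase of the softening cell wall, was also lower on every line array (5685 to 10536 in controls, 1798 to 4778 in lines). The other 4 overlapped, and the summed signal of the 5 was 30850.3 to 49227 in controls and 24438 to 38044 in lines. The part of these markers in the eIF4E1 difference, and in that of DHS given further on, was not tested. The share of all fruit probe sets on which lines and controls did not overlap is not given here, beside the 31.1% called.

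Neither N7 and N6 nor VC and WT, as labelled, separated for eIF4E1 in fruit. N7 minus N6 was 0.11 (95% interval -0.44 to 0.67, adjusted p = 0.905), in a comparison that called 2.9% of probe sets. VC minus WT was -0.05 (-0.60 to 0.51, adjusted p = 0.994), in a comparison where limma called 0 probe sets (0%) and 331 had an unadjusted p under 0.05.

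**Figure D2:**
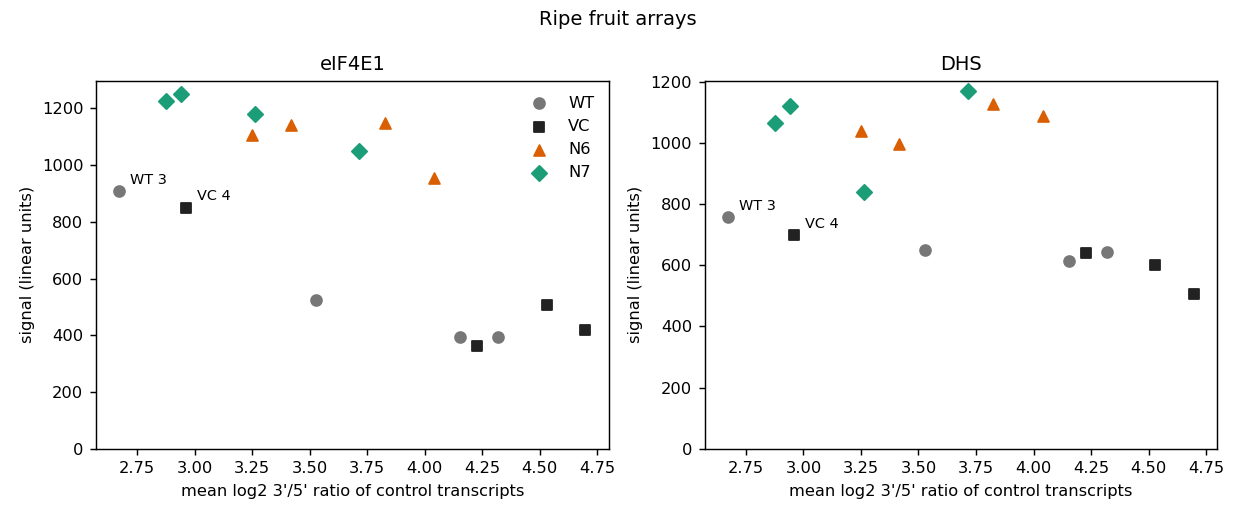
Signal of eIF4E1 (left) and DHS (right) on each of the 16 fruit arrays (vertical axis, linear units) against the mean log2 ratio of 3′ to 5′ signal of control transcripts on that array (horizontal axis). WT 3 and VC 4 have the lowest ratios among the controls and the highest control signals of both genes, and all line arrays lie above them.

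Outside fruit the eIF4E1 groups overlapped. In leaf the controls ranged from 492 to 675 with a median of 597, and the lines from 391 to 663 with a median of 552. The difference was -0.14 ± 0.12 (6 against 6 arrays), with N6 at 0.04 and N7 at -0.32. Of the 6 line arrays 2 were below every control, both of them N7. N7 minus N6 was -0.35 (-0.72 to 0.01, adjusted p = 0.210), beside 4.48% of probe sets called. In root tips the controls ranged from 589.7 to 803 with a median of 751, and the lines from 679.6 to 887 with a median of 809. The difference was 0.17 ± 0.11, and 3 of 6 line arrays were above every control. VC minus WT in root tips was -0.25 (-0.57 to 0.08, adjusted p = 1). Whether the line difference of eIF4E1 differs between tissues was not tested.

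In root tips eIF-5A3 was higher in both lines. WT gave 3043, 3403 and 2749, and VC 3414, 3115 and 3045. N6 gave 4381, 4314 and 4419, and N7 gave 3599, 4094 and 4070.2. All 6 line arrays were above all 6 controls, with a gap of 3414 to 3599 between the groups. The difference was 0.41 ± 0.08 on the log2 scale, 1.33-fold (N6 0.49 ± 0.09, N7 0.33 ± 0.09). Only 0.508% of the 6495 probe sets were called between lines and controls in root tips, 7 higher and 26 lower, and eIF-5A3 and LysRS were among them, which is how they were chosen. Each call rested on most of the arrays. That of eIF-5A3 was lost without any one of 9 of the 12 (all but WT 2, N6 3 and N7 1), and that of LysRS without 9 (all but WT 2, N6 3 and N7 3). The call of eIF-5A3 was also lost with no filter, median scaling, quantile normalization, the replicate number as a block, WT as the only control and VC as the only control. That of LysRS was also lost with a floor of 16, no filter, WT as the only control and VC as the only control. The difference of eIF-5A3 itself lay between 0.37 and 0.45 whichever array was omitted.

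The lines did not separate from each other for eIF-5A3 in root tips (N7 minus N6 -0.16, -0.39 to 0.08, adjusted p = 1), where 0.0462% of probe sets were called. Nor did the controls (VC minus WT 0.06, -0.17 to 0.30, adjusted p = 1), where limma called 0 probe sets (0%) and 60 had an unadjusted p under 0.05.

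In fruit, eIF-5A3 signals ran from 2374 to 3561 in controls (median 2978) and from 2990.3 to 5222 in lines (median 3691). Here 5 of 8 line arrays were above every control. The difference was 0.31 ± 0.12, which did not pass the threshold, and N7 against VC 1 to 3 alone gave 0.43 ± 0.19. In leaf the values ran from 1362 to 2499 in controls (median 2152) and from 1247 to 2085 in lines (median 1844). The groups overlapped, and the difference was -0.22 ± 0.14, beside 18.4% of 6535 probe sets called between lines and controls in leaf. Between the lines in leaf, N7 minus N6 was -0.40 (-0.84 to 0.03, adjusted p = 0.226). Between the controls in leaf, VC minus WT was 0.33 (-0.10 to 0.77, adjusted p = 0.991), in a comparison that called 0.0153% of probe sets, and WT 1 and WT 2 were the lowest and the highest leaf controls.

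LysRS was lower in root tips of both lines. WT gave 200.3, 119 and 152, and VC 139, 159 and 177. N6 gave 87.7, 72.1 and 95.5, and N7 gave 75.3, 61.8 and 102. All 6 line arrays were below all 6 controls and above the floor. The difference was -0.94 ± 0.18 on the log2 scale, a 1.92-fold lower signal (N6 -0.88 ± 0.22, N7 -0.996 ± 0.22). Of the probe sets tested, 0.816% had a lower difference, a rank that goes with the choice of LysRS on this difference. The line arrays lay close to the floor, and with a floor of 100 the difference was -0.63. Between the lines the difference was -0.11 (-0.67 to 0.44, adjusted p = 1), and between the controls 0.03 (-0.52 to 0.59, adjusted p = 1). The summed signal of the root markers ext1 and LKT1 was 533 to 969 in controls and 374 to 1061 in lines. Taken singly, ext1, a cell wall extensin, had mean signals of 561 in WT, 351 in VC, 128 in N6 and 554 in N7. LKT1, a potassium channel, had means of 371 in WT, 316 in VC, 299 in N6 and 218 in N7, and 4 of 6 line arrays were below every control. The part of these markers in the differences of LysRS and eIF-5A3 was not tested. The 3′ to 5′ ratio overlapped as well, at 2.57 to 3.28 in controls and 2.21 to 3.56 in lines, and with that ratio as a covariate LysRS was at -0.92 and eIF-5A3 at 0.42.

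**Figure D3:**
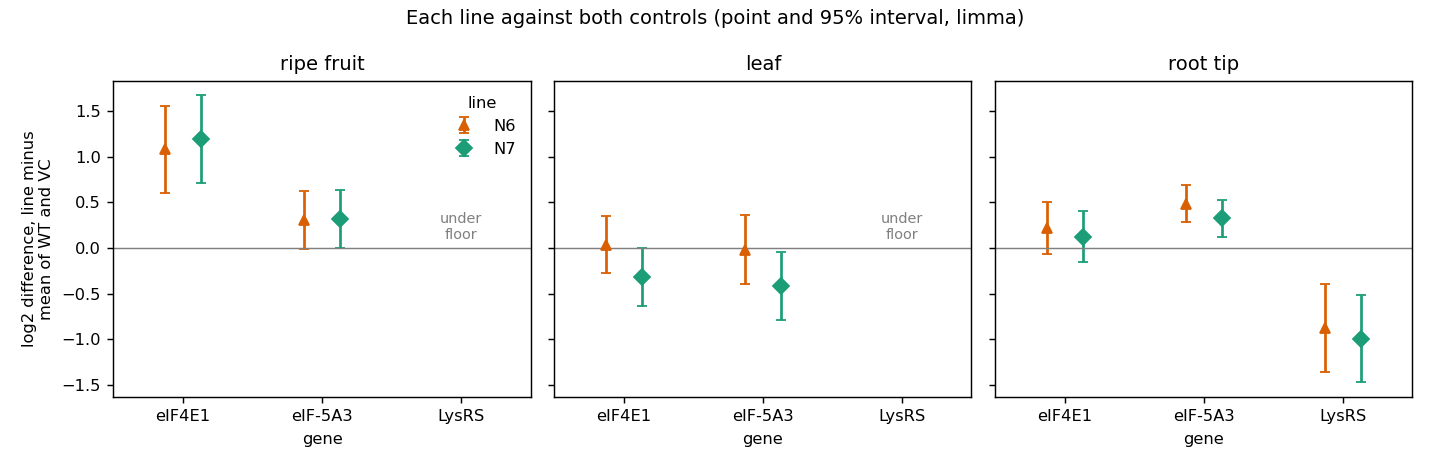
Difference of N6 (triangles) and N7 (diamonds) from the mean of WT and VC on the log2 scale, with 95% intervals from limma, for each gene in ripe fruit, leaf and root tip. Both lines lie near 1.1 for eIF4E1 in fruit, near 0.4 for eIF-5A3 in root tips and near -0.9 for LysRS in root tips, and LysRS was under the floor in fruit and leaf.

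By symbol, 9 other genes of the translation machinery were found on the array: 3 further eIF-5A genes, DHS and 5 ribosomal protein genes. Translation genes under other symbols are missed. No elongation factor, release factor or poly(A)-binding protein was found by symbol. In fruit 1 of the 9 rose, 3 fell and 5 were not called, with a median difference of -0.00 beside 0.04 over all probe sets, of which 31.1% were called (1029 higher and 899 lower). N7 against VC 1 to 3 alone called 1 higher and 1 lower, beside 2361 of all probe sets, where the main comparison called 1928. In leaf and in root tips limma called 0 of the 9, beside 18.4% and 0.508% of all probe sets. At an unadjusted p under 0.05 the counts there were 0 in leaf and 1 in root tips, RPL37 (0.33, adjusted p = 0.194). The median difference was 0.01 in leaf, the same as over all probe sets, and 0.15 in root tips beside -0.02 over all probe sets.

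DHS, the enzyme that starts hypusine formation on eIF5A, was the gene that rose in fruit. Its signal was 649.8, 615, 759 and 643 on the arrays labelled WT and 603, 639.9, 506 and 700.0 on those labelled VC. It was 998, 1128, 1089.6 and 1038 on N6 and 1119.8, 1065, 1169.6 and 839 on N7. The groups did not overlap, and WT 3 and VC 4 were again the highest controls. The difference was 0.73 ± 0.09 (SE, adjusted p = 2.64e-05), 1.65-fold, and N7 against VC 1 to 3 alone gave 0.84 (adjusted p = 0.00164). Each of the 27 alternative settings kept the call, with differences from 0.66 to 0.84. DHS was not called in leaf (-0.04 ± 0.15) or in root tips (-0.23 ± 0.13, adjusted p = 0.477), the tissue in which eIF-5A3 was higher.

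The ribosomal protein genes that fell in fruit were rpl38 (-0.41 ± 0.14, adjusted p = 0.0296), RPL8 (-0.23 ± 0.08, adjusted p = 0.0322) and RPL37 (-0.26 ± 0.09, adjusted p = 0.0370). All 3 are components of the large subunit. RPL3, of the same subunit, was at -0.12 and RPS25, of the small subunit, at 0.02, neither called, and in N7 against VC 1 to 3 alone they were at -0.38 and -0.30 (adjusted p = 0.0560 and 0.0725). The RPL3 probe set is shared with other transcripts by its name. The decreases were small, and none of the 3 was called with arrays scaled to equal medians, with the 3′ to 5′ ratio as a covariate or against WT alone. Leaving out 1 of the 16 fruit arrays ended the call of rpl38 in 6 cases, of RPL8 in 8 and of RPL37 in 9. With VC as the only control 1 was called, beside 1475 of all probe sets. N7 against VC 1 to 3 alone left RPL8 called (-0.46, adjusted p = 0.00800) but not rpl38 (-0.40, adjusted p = 0.149) or RPL37 (-0.26, adjusted p = 0.155). A second RPS25 probe set, dimmer and shared with other transcripts by its name, disagreed in root tips, where it was higher on 6 of 6 line arrays (0.49, adjusted p = 0.187) while the brighter one was at 0.08. In leaf the dimmer one was at -0.41 (adjusted p = 0.130) and the brighter one at -0.06.

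**Figure D4:**
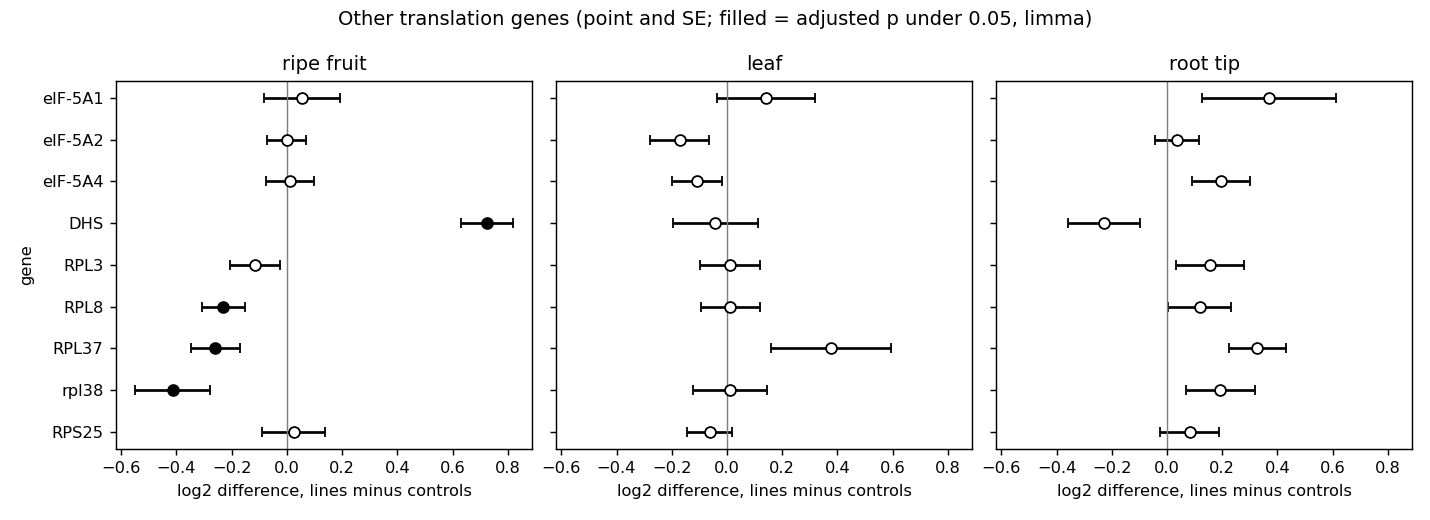
Log2 difference between lines and controls (point and SE) of the 9 other translation genes in ripe fruit, leaf and root tip, filled where the adjusted p from limma is under 0.05. DHS is filled at 0.73 and RPL8, RPL37 and rpl38 are filled below 0 in fruit, and no gene is filled in leaf or root tip.

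None of the other eIF-5A genes was called in any tissue with both lines combined. In root tips the differences were 0.37 ± 0.24 for eIF-5A1, 0.04 ± 0.08 for eIF-5A2 and 0.20 ± 0.11 for eIF-5A4, with adjusted p from 0.457 to 0.878. In fruit they were between -0.00 and 0.05, and in leaf between -0.17 and 0.14. In N7 against VC 1 to 3 alone the fruit differences were 0.35 for eIF-5A1 (adjusted p = 0.0626), -0.07 for eIF-5A2 and -0.03 for eIF-5A4. Of the single lines, N6 was below the leaf controls for eIF-5A2 (-0.46, adjusted p = 0.0319). N7 was at 0.12 (adjusted p = 0.624), and the difference between the lines did not pass the threshold (N7 minus N6 0.58, adjusted p = 0.0525). With both lines combined 18.4% of probe sets were called in leaf, and the share for N6 alone is not given here. The eIF-5A genes resemble each other in sequence, so part of a signal may come from another copy, which was not tested.

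The eIF-5A genes differed in how their signals were spread over the tissues of control plants, where fruit also differed from leaf and root tips in plant age. For eIF-5A1, fruit exceeded leaf by 1.77 and root tips by 2.55 on the log2 scale (adjusted p = 3.56e-08 and 2.03e-10), and leaf exceeded root tips by 0.78 (adjusted p = 0.00109). For eIF-5A4, root tip was the low tissue, under fruit by a fruit minus root tip difference of 0.64 (adjusted p = 8.36e-07) and under leaf by a leaf minus root tip difference of 0.77 (adjusted p = 1.72e-07). eIF-5A2 was lowest in leaf, like eIF-5A3, with fruit minus leaf at 0.47 (adjusted p = 5.79e-05) and leaf minus root tip at -0.24 (adjusted p = 0.0197). The second of these was close to the median of all probe sets (-0.24) and was lost under median scaling (-0.12, adjusted p = 0.634). With VC 1 to 3 as the only fruit controls, the fruit contrasts given here stayed called, at 1.62 and 2.40 for eIF-5A1, 0.70 for eIF-5A4 and 0.59 for eIF-5A2. DHS was lowest in leaf (fruit minus leaf 1.80, adjusted p = 4.26e-10, and leaf minus root tip -1.27, adjusted p = 1.65e-07). It was higher in fruit than in root tips by 0.53 (adjusted p = 0.00147), but by 0.40 (adjusted p = 0.0565) with VC 1 to 3 as the only fruit controls. Of the 9 other translation genes, 5 were higher and 1 lower in fruit than in leaf, and 5 higher and 1 lower in fruit than in root tips. Between leaf and root tips 2 were higher and 4 lower in leaf. Over all probe sets these comparisons called 66.3%, 66.5% and 70.1%.

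**Figure D5:**
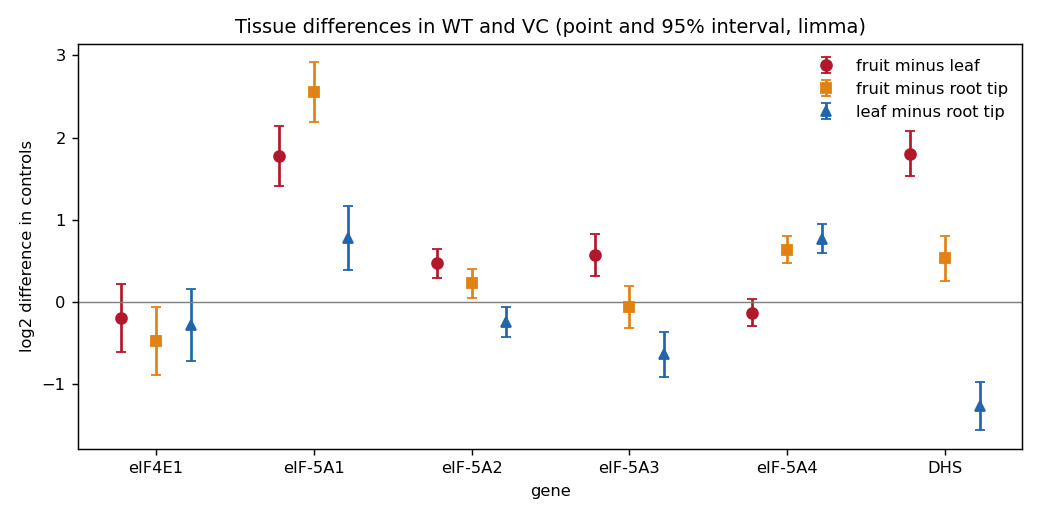
Log2 difference between tissues in WT and VC plants, with 95% intervals from limma on 20 control arrays, for eIF4E1, the 4 eIF-5A genes and DHS; circles are fruit minus leaf, squares fruit minus root tip and triangles leaf minus root tip. Both fruit contrasts of eIF-5A1 and DHS lie above 0, eIF-5A3 is low in leaf, eIF-5A4 is low in root tips, and for eIF4E1 the intervals of fruit minus leaf and leaf minus root tip cross 0.

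Across the 12 group means of the 3 tissues and 4 genotypes, the profiles of the 3 genes were compared with those of 731 genes that have a symbol. These means share arrays, scaling and tissue, and the coefficients are descriptions. Most like eIF4E1 were ats1, LOC543811 and LOC543812 (Pearson's r = 0.89 for each). Most like eIF-5A3 were ER49 (0.95), AN34 (0.93) and app1 (0.93). Most like LysRS were gtsatom (0.98), RBOH1 (0.97) and EXPA6 (0.96), all of them at the floor in every fruit and leaf group, so their likeness rests on the root tip groups. Among the 3 genes themselves, r was 0.70 between eIF4E1 and eIF-5A3, 0.17 between eIF4E1 and LysRS and 0.37 between eIF-5A3 and LysRS. Within the eIF-5A family, r with eIF-5A3 was 0.65 for eIF-5A2, 0.14 for eIF-5A1 and -0.52 for eIF-5A4.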

How the data were processed

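Values are the deposited intensity values of 40 Affymetrix arrays, 1 linear signal per probe set, made by the authors with GCOS per the submitters' processing notes. The sources used here do not state its version or scaling target. The trimmed mean (2% cut at each end) was equal on every array, so the deposited scaling was kept. It assumes an equal trimmed mean in all tissues.

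Signals were floored at 50 and log2 was taken. Probe sets above the floor on at least 4 fruit, 3 leaf or 3 root tip arrays entered limma 3.58.1 (R 4.3.3) with a mean per genotype, trended variance and p-values adjusted by Benjamini-Hochberg over every probe set tested (threshold 0.05). Tissues were compared in a fit of the 20 control arrays, on probe sets above the floor on at least 3. The fits were tested on simulated data.

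Control probe sets (108 AFFX, 63 reporter) stayed out. Symbols (909 probe sets, 885 matched to the SLM_r2.1 gene table) chose the genes and the translation list, since no gene descriptions were available. With several probe sets per gene the brightest was used. Named beside the 3 genes were, per tissue, the called list genes with the smallest p (up to 2 each way) and the 3 most similar profiles per gene. RPL37, the other eIF-5A genes, RPL3, RPS25 and the tissue values of DHS were chosen after their values were seen. Members and lists were chosen with earlier results of these data known. The number of arrays limits precision.

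Same-numbered samples did not all deviate together (residual correlations -0.72 to 0.57 in fruit, -0.42 to 0.26 in leaf, -0.63 to 0.49 in root tips), so numbers were not treated as pairs.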

Additional observations from a re-analysis of the deposited data

How the results depend on the processing

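Alternatives were a floor of 16 or 100, no filter, median scaling, quantile normalization, the replicate block, the 3′ to 5′ ratio as a covariate, 1 control genotype alone, the doubtful fruit arrays left out and each array left out in turn. Using VC 1 to 3 as the only fruit controls between tissues was chosen after seeing the data. The line differences of eIF4E1 in fruit, eIF-5A3 in root tips and LysRS in root tips kept their sign under every alternative run. Lines and controls did not overlap in these comparisons, which chose the genes. Leaving out arrays, another floor or filter, or 1 control genotype alone could therefore not turn the sign. No called result reversed. Where a value moved, the cause was not tested. Comparisons with 1 control genotype alone came from the main fit of all its arrays, with the control mean taken over fewer arrays. Under median scaling eIF-5A3 in root tips was at 0.517 and no longer called, and with a floor of 100 LysRS was at -0.6332. LysRS in root tips exceeded fruit and leaf less with a floor of 100 (-0.6385) or median scaling (-1.47) and more with a floor of 16 (-3.282).

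The eIF4E1 fruit minus root tip difference was not called with no filter (-0.4802), median scaling (-0.1397), quantile normalization (-0.3736), WT alone (-0.5818) or VC alone (-0.3787), and ran from -0.6139 to -0.3995 with 1 array left out. Without fruit WT 3 and VC 4, fruit minus leaf (-0.4555) and leaf minus root tip (-0.2837) became called for eIF4E1, as they did with VC 1 to 3 as the only fruit controls (-0.4701 and -0.2837). For leaf minus root tip the estimate was that of the main fit, and the SE, from a spread shared by all tissues, was smaller. In VC alone, eIF-5A3 fruit minus leaf (0.3845) was not called.

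Counts of called probe sets moved more. For lines against controls, fruit gave 3294 without WT 3 and VC 4. Leaf gave 593 with the covariate, 788 against WT, 660 against VC and 794 to 1556 with 1 array left out. Root tips gave 5 with no filter, 151 with the covariate, 8 against WT, 4 against VC and 18 to 140 with 1 array left out. For N7 against N6, fruit gave 94 under median scaling, 491 with the covariate, 717 without WT 3 and VC 4 and 83 to 286 with 1 array left out. Leaf gave 91 with no filter, 195 with the replicate block, 84 with the covariate and 69 to 709 with 1 array left out. Root tips gave 5 with a floor of 100, 11 with the covariate and 2 to 9 with 1 array left out. For VC against WT, fruit gave 21 without WT 3 and VC 4 and 0 to 10 with 1 array left out, and leaf gave 0 with a floor of 16, no filter, the replicate block or the covariate and 0 to 4 with 1 array left out.

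Of the other translation genes in fruit, the number lower was 1 with no filter, against VC or in N7 against VC 1 to 3, 0 under median scaling, with the covariate or against WT, and 0 to 3 with 1 array left out. The number higher was 2 with the covariate. Over all probe sets, fruit gave 1626 called with no filter, 1475 against VC, 2361 in N7 against VC 1 to 3 and 1984 under median scaling. Fruit gave 2336 with the covariate, 1347 against WT and 1616 to 2545 with 1 array left out. In leaf, leaving out 1 array gave 0 to 1 higher, beside 794 to 1556 of all probe sets called. With the replicate block the eIF-5A3 difference in root tips stayed at 0.41 but was not called. That call was also lost with no filter, median scaling, quantile normalization, WT alone and VC alone, and the LysRS call with a floor of 16, no filter, WT alone and VC alone.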
